A study of Capra hircus with 12 samples.

Results

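The microRNAs (miRNAs) oar-miR-200a, oar-miR-200b and oar-miR-200c of embryonic cashmere goat skin were chosen by name, and they are 3 of the 649 rows of the small RNA table. The prefix oar marks a sheep miRNA name, which 151 rows carry, while the other 498 rows are listed under a chromosome or scaffold label with no miRNA name. Skin came from the mid flank of Inner Mongolia cashmere goat embryos of embryonic day 45 (E45), 55 (E55) or 65 (E65), and the labels name no treatment and no genetic change in any group. At each stage the skin of 3 embryos was mixed before RNA extraction and sequenced as 1 small RNA library, so the 3 libraries have no replicate and the spread between embryos is not visible in them. The libraries held 2455491 reads (E45), 4125742 reads (E55) and 2344798 reads (E65) over the rows of the table, so that 1 read was worth 0.407, 0.242 and 0.426 RPM, that is reads per 1000000 reads of the table. No test between stages was possible, and each difference below is a difference between pools of tissue. Intervals are exact 95% intervals and cover counting error only, not differences between embryos or between library preparations. Reads copied by PCR are not independent molecules, so the intervals can be too narrow even for counting error.

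The miR-200 family is best known as a keeper of the epithelial state. Its miRNAs bind the mRNAs of ZEB1 and ZEB2, a pair of transcription factors that shut down E-cadherin and other epithelial genes, and ZEB1 and ZEB2 in turn repress the miR-200 genes. In mammals the family comprises miR-200a, miR-200b, miR-200c, miR-141 and miR-429, and in mouse skin it is abundant in the epidermis, the layer from which hair placodes form. A miRNA finds its targets mainly through its seed, bases 2 to 8 from the 5′ end. The family falls into a group with the seed of miR-200b and miR-200c and a group with the seed of miR-200a and miR-141, which differ at a single base. In the RefSeq goat gene table (assembly ARS1.2) the genes lie in a pair of clusters, with MIR200A between MIR429 and MIR200B in one, and MIR141 next to MIR200C in the other.

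The sequences that the deposited table lists for the 3 rows, and for 2 unnamed rows that were found by their seed, are shown because the grouping of the rows rests on them. They are written 5′ to 3′ with T in place of U, as in the table, and capitals mark bases 2 to 8.
oar-miR-200b: tAATACTGcctggtaatgatg
oar-miR-200c: tAATACTGccgggtaatgatgg
chr16_7396: tAATACTGtctggtaatgccgt
chr5_2836: tAACACTGtctggtaaagatgg
oar-miR-200a: aACACTGTctggtaacgat

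The seed of miR-200b and miR-200c, AATACTG, was held by 3 of the 649 rows (0.462%), at bases 2 to 8 in each. Besides the 2 named miRNAs, the third was the unnamed row chr16_7396. The heptamer of the other group, AACACTG, was held by 2 rows (0.308%). In the unnamed row chr5_2836 it lay at bases 2 to 8. In oar-miR-200a it lay at bases 1 to 7, because the listed sequence starts 1 base later than those of the other rows and is 19 nt long. The 7 bases of a target mRNA that pair with these heptamers read CAGTATT and CAGTGTT. Unnamed rows were given no miRNA name here, as neither the table nor the gene table pairs them with one, and the 2 rows were added after the values had been seen, by sequence alone.

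The rows resemble each other beyond the seed. Counted from the 5′ end of miR-200b, miR-200c differed from it by T11G alone over 21 aligned bases, and chr16_7396 differed by C9T, A19C and T20C. The differences of chr5_2836 from miR-200b were T4C, which lies in the seed, C9T and T17A. Aligned at the heptamer and counted from the 5′ end of oar-miR-200a, chr5_2836 differed from it by C16A alone over 19 bases. How many mismatches the read matching allowed is not given in the sources used here, so reads of rows that differ by 1 base could be split between them. Each of the 5 sequences stood in 1 row only.

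miR-200b and miR-200c were both highest at E65, and most of their increase lay between E55 and E65. miR-200b, processed from the same cluster as miR-200a, was listed at 76.56 RPM (E45), 120.95 RPM (E55) and 451.21 RPM (E65). These values stand for 188, 499 and 1058 reads. Counting error put the level between 66.0 and 88.3 RPM in the first library, between 111 and 132 RPM in the second and between 424 and 479 RPM in the last, and these intervals did not overlap. Its rank among the 649 rows moved from 254 at E45 to 196 at E55 and 125 at E65.

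miR-200c, whose gene lies next to that of miR-141, was listed at 41.54 RPM (E45), 77.56 RPM (E55) and 306.64 RPM (E65), which stand for 102, 320 and 719 reads. The intervals were 33.9 to 50.4 RPM, 69.3 to 86.5 RPM and 285 to 330 RPM in this order, again with no overlap. It ranked 291st, 224th and 144th among the rows. Within every library miR-200c stood below miR-200b, and the intervals of the pair did not overlap in any of the 3.

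oar-miR-200a was almost absent as listed. Its listed values were 0.41 RPM (E45), 0.48 RPM (E55) and 1.28 RPM (E65), that is 1 read, 2 reads and 3 reads. The intervals ran from 0.0103 to 2.27 RPM, from 0.0587 to 1.75 RPM and from 0.264 to 3.74 RPM and overlapped throughout. As no library exceeded 3 reads, no fold change is given, and a difference between stages was not detectable at this depth. Whether its later start and shorter length bear on these counts was not tested.

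The plot of the family levels by embryonic day sets the 5 rows side by side.

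**Figure D1:**
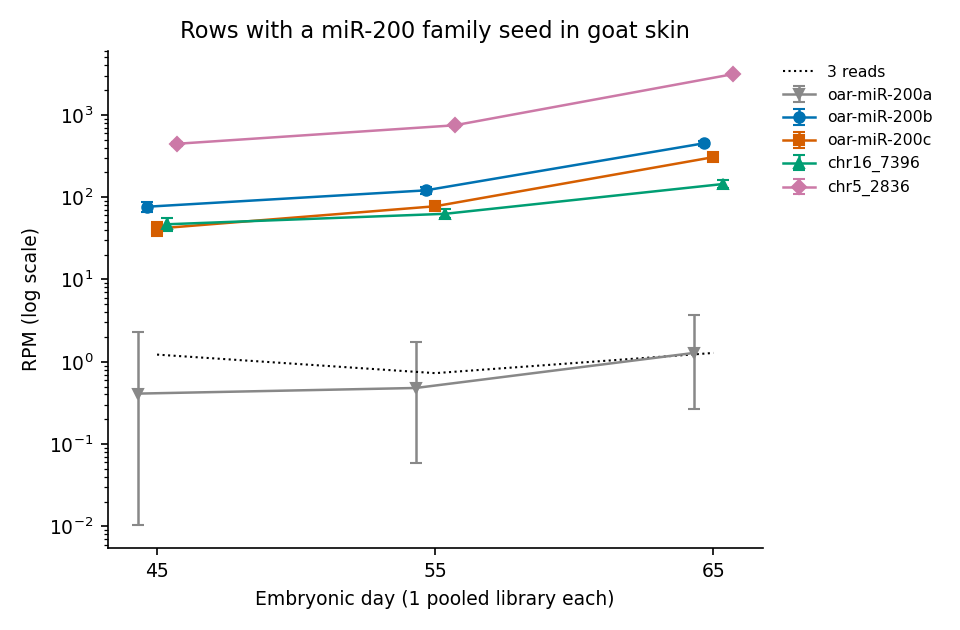
Level of the 5 rows with a miR-200 family heptamer in RPM (log axis) against embryonic day, 1 pooled library per stage; bars are exact 95% Poisson intervals, points are shifted sideways for clarity, and the dotted line marks 3 reads. The row chr5_2836 is highest and oar-miR-200a lowest in each library, and the other 4 rows are highest at E65 whereas oar-miR-200a stays at 1 to 3 reads.

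The 2 unnamed rows carried most of the family's reads. chr5_2836, which shares its heptamer with miR-200a, was listed at 445.12 RPM (E45), 747.50 RPM (E55) and 3125.22 RPM (E65). It held 72.9% (Clopper-Pearson interval 70.6% to 75.2%) of the reads of the 5 rows at E45, 74.1% (72.7% to 75.4%) at E55 and 77.6% (76.7% to 78.4%) at E65. chr16_7396, which has the seed of miR-200b and miR-200c, was listed at 46.83 RPM (E45), 62.78 RPM (E55) and 144.58 RPM (E65). Its reads differed from those of miR-200c by less than counting error at E45 and were fewer at the later stages, as the ratios given further on show.

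From E45 to E55 miR-200b and miR-200c were both higher, by less than 2-fold. The fold change of the read rate was 1.58 (interval 1.33 to 1.88) for miR-200b and 1.87 (1.49 to 2.36) for miR-200c. On the scale used for all rows, the log2 ratio of RPM + 1, these were 0.65 and 0.88, against a median of -0.25 and an upper quartile of 0.21 over the 649 rows. Of all rows, 73 had a larger ratio than miR-200b and 43 a larger one than miR-200c (93 and 69 rows with a pseudocount of 0.1 RPM, 33 and 18 rows with 10 RPM). Neither member reached a 2-fold difference, which 4.47% of the rows reached upwards and 17.7% downwards. Among the 151 sheep-named rows, to which the members belong, 10 (6.62%) were higher and 9 (5.96%) lower, with a median of 0.15. The split over all rows moved with the scaling between libraries: 29 rows were higher and 115 lower on the deposited values, but 59 and 79 after median scaling, which also put miR-200c past 2-fold, at 1.19.

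From E55 to E65 both members stood near the top of the table. The fold change was 3.73 (3.35 to 4.16) for miR-200b and 3.95 (3.46 to 4.52) for miR-200c. The log2 ratios of RPM + 1 were 1.89 and 1.97, with a median of -0.09 over all rows, and 6 and 4 of the 649 rows had a larger ratio (20 and 15 rows with a pseudocount of 0.1 RPM in place of 1). Of the 3 members 2 were at least 2-fold higher, as were 6.32% of the rows, while 16.3% of the rows were at least 2-fold lower. Among the 151 sheep-named rows 8 (5.3%) were higher and 41 (27.2%) lower, with a median of -0.52. Of all rows 41 were higher and 106 lower by this measure, or 64 and 103 without the 10 most abundant rows.

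Over the whole interval from E45 to E65 the read rate was 5.89-fold (5.04 to 6.92) higher for miR-200b and 7.38-fold (5.99 to 9.17) higher for miR-200c. The log2 ratios of RPM + 1 were 2.54 and 2.85, whereas the median of all rows was -0.41 and the upper quartile 0.10. Both were at least 2-fold higher, as were 5.86% of the rows, while 26.8% were at least 2-fold lower. The sheep-named rows gave 11 (7.28%) higher and 28 (18.5%) lower, with a median of -0.37. Of all rows 38 were higher and 174 lower by this measure, or 60 and 127 after median scaling. Only 4 of the 649 rows had a ratio at least as large as that of miR-200b, and of the 151 rows with a sheep name these were miR-200b and miR-200c themselves. The other 2 were unnamed, chr5_2836 with 2.81 and chr16_7465 with 3.39, the largest ratio in the table. This place depended on the pseudocount, since with 0.1 RPM in place of 1 a larger ratio was found in 14 rows for miR-200b and 12 rows for miR-200c, against 3 rows and 1 row. The comparisons share libraries, so the interval from E45 to E65 is not independent of the shorter intervals. In bulk skin a change in the share of epithelial cells and a change in miRNA per cell cannot be told apart.

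**Figure D2:**
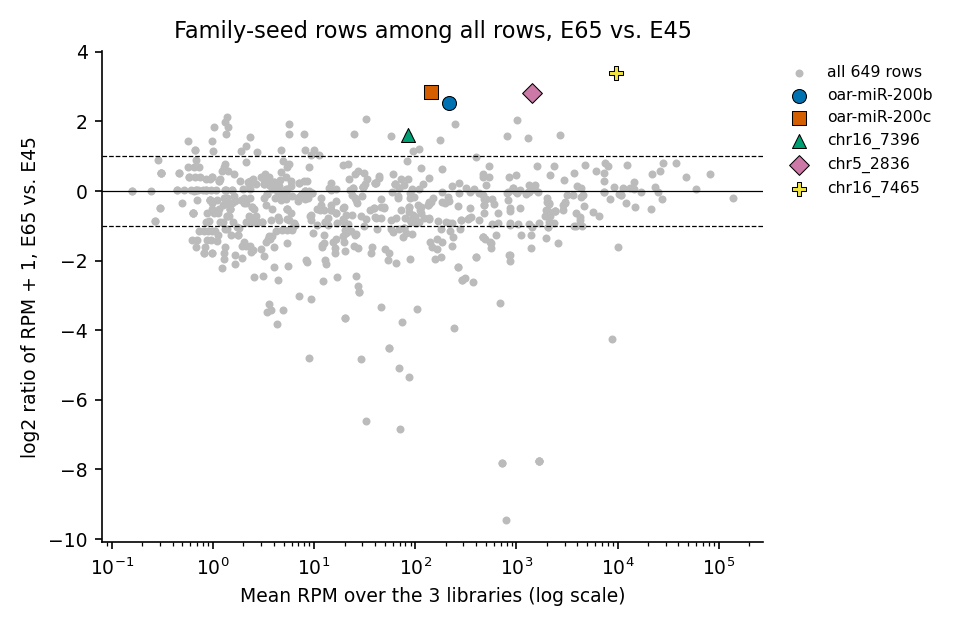
The log2 ratio of RPM + 1 in E65 vs. E45 (vertical axis) against mean RPM over the 3 libraries (log axis) for all 649 rows; grey points are all rows, coloured symbols the 4 family rows above 3 reads and chr16_7465, and dashed lines a 2-fold difference. miR-200b (2.54), miR-200c (2.85), chr5_2836 (2.81) and chr16_7465 (3.39) lie above every grey point, and chr16_7396 (1.61) lies lower.

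Summed by heptamer, the rows with AATACTG (miR-200b, miR-200c and chr16_7396) came to 165 RPM (E45), 261 RPM (E55) and 902 RPM (E65), a 5.47-fold (4.92 to 6.10) difference from E45 to E65. The rows with AACACTG (chr5_2836 and oar-miR-200a) came to 446, 748 and 3127 RPM, a 7.02-fold (6.58 to 7.48) difference. The second group had 2.70 times (2.41 to 3.03) the reads of the first at E45, 2.86 times (2.67 to 3.07) at E55 and 3.46 times (3.30 to 3.64) at E65. This ratio was taken within a library and does not depend on the scaling between libraries. The second group was almost chr5_2836 alone, with 1093 of 1094 reads at E45 and 7328 of 7331 at E65. Of the reads of the 5 rows, chr16_7396 held 7.67% at E45 and 3.59% at E65. The shares were 12.5% and 11.2% for miR-200b, and 6.80% and 7.61% for miR-200c. Together the 5 rows reached 610 RPM (E45), 1009 RPM (E55) and 4029 RPM (E65).

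Ratios between rows within a library show how alike the family members changed. miR-200b had 1.84 times (1.44 to 2.37) the reads of miR-200c at E45, 1.56 times (1.35 to 1.80) at E55 and 1.47 times (1.34 to 1.62) at E65. The fold change of miR-200b from E45 to E65 was 0.798 times that of miR-200c, with an interval of 0.610 to 1.04 that includes 1. A difference between the fold changes of the pair was thus not detectable at this depth.

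chr16_7396 had a smaller increase than the named rows that share its seed. miR-200b had 1.63 times (1.29 to 2.08) its reads at E45, 1.93 times (1.65 to 2.25) at E55 and 3.12 times (2.76 to 3.54) at E65. miR-200c had 0.887 times (0.673 to 1.17) its reads at E45, 1.24 times (1.05 to 1.46) at E55 and 2.12 times (1.86 to 2.42) at E65. From E45 to E65 chr16_7396 was 3.09-fold (2.49 to 3.85) higher, and the fold change of miR-200c was 2.39 times (1.76 to 3.25) as large. By contrast, miR-200c and chr5_2836 kept nearly the same ratio, 0.0933 (0.0754 to 0.114) at E45, 0.104 (0.0922 to 0.116) at E55 and 0.0981 (0.0908 to 0.106) at E65. Of the 9 comparisons with chr16_7396 (6 pairs of rows were compared over 3 intervals, 18 in all), 7 had an interval that excludes 1, against 1 of the 9 without it, that of miR-200b and chr5_2836 from E45 to E65 (0.839, interval 0.709 to 0.998). The intervals were not adjusted for the number of comparisons. Nor are the comparisons independent, as those with chr16_7396 all reuse its 115 (E45), 259 (E55) and 339 (E65) reads. Comparisons of the same pair also share libraries.

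**Figure D3:**
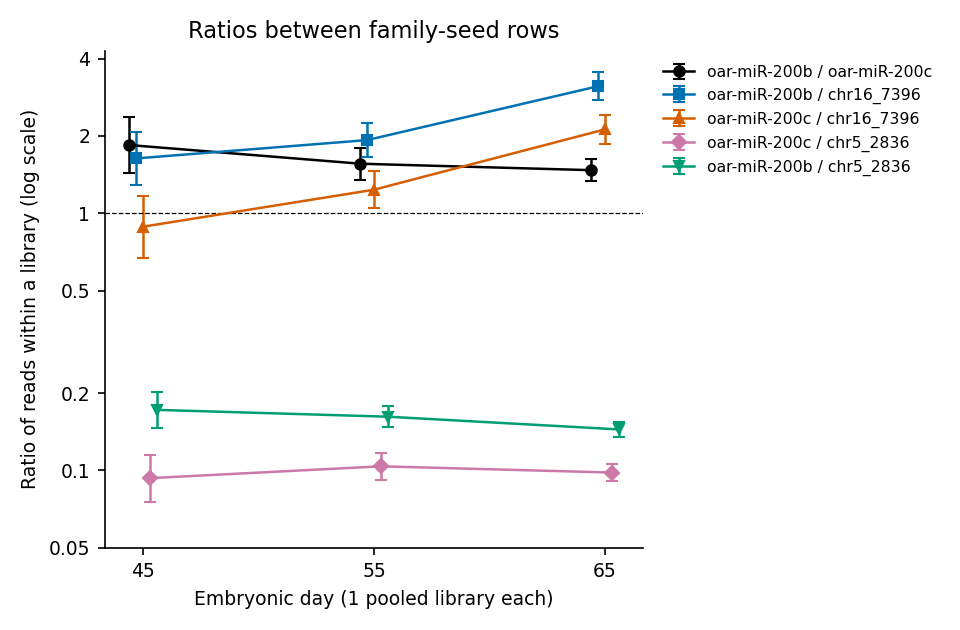
Ratio of reads between 2 family rows within a library (log axis) against embryonic day, with exact 95% intervals and points shifted sideways for clarity; the dashed line marks equal reads. The ratios of miR-200b and miR-200c to chr16_7396 reach 3.12 and 2.12 at E65, while the ratio of miR-200c to chr5_2836 stays between 0.0933 and 0.104.

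The rows most like miR-200b and miR-200c were sought by the distance between their pairs of log2 ratios (E55 vs. E45 and E65 vs. E55), among the 476 other rows with more than 3 reads in every library. With 3 libraries this is a description of 2 differences per row. The nearest row to each member was the unnamed chr5_2836, at a distance of 0.20 from miR-200b and 0.17 from miR-200c, and the second nearest was the other member, at 0.25. Among the rows with a sheep name the next after the members was miR-221, at 0.85 from miR-200b and 1.10 from miR-200c. It is a miRNA known for targeting the cell cycle inhibitor CDKN1B, and it was listed at 111.99 RPM (E45), 100.10 RPM (E55) and 313.46 RPM (E65). let-7b followed at 1.13 and 1.14, with 106.29, 227.11 and 409.42 RPM. It belongs to the let-7 family, known for its role in developmental timing, and unlike miR-200b and miR-200c it had the larger log2 ratio in the first interval (1.09 against 0.85). The next named rows were miR-150 (1.26) and miR-23a (1.26) for miR-200b, and let-7g (1.35) and miR-150 (1.40) for miR-200c. For either member 14 unnamed rows were nearer than the last of these named rows.

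The unnamed row chrX_13128, with 14.66, 17.69 and 65.25 RPM, was the third nearest row to miR-200b, at 0.40, and the next after the third to miR-200c, at 0.65. Another unnamed row, chr16_7465, is described for its ratio from E45 to E65, the largest in the table. It was the third nearest row to miR-200c, at 0.55, but was not among the 5 rows nearest to miR-200b, and it had 2056.62 RPM (E45), 5575.72 RPM (E55) and 21553 RPM (E65). It was 10.5-fold (10.2 to 10.8) higher at E65 than at E45 and ranked 12th of the 649 rows at E65. Its sequence shares no heptamer with the family at bases 2 to 8, again in capitals.
chr16_7465: tCCTTCATtccaccggagtctgt

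**Figure D4:**
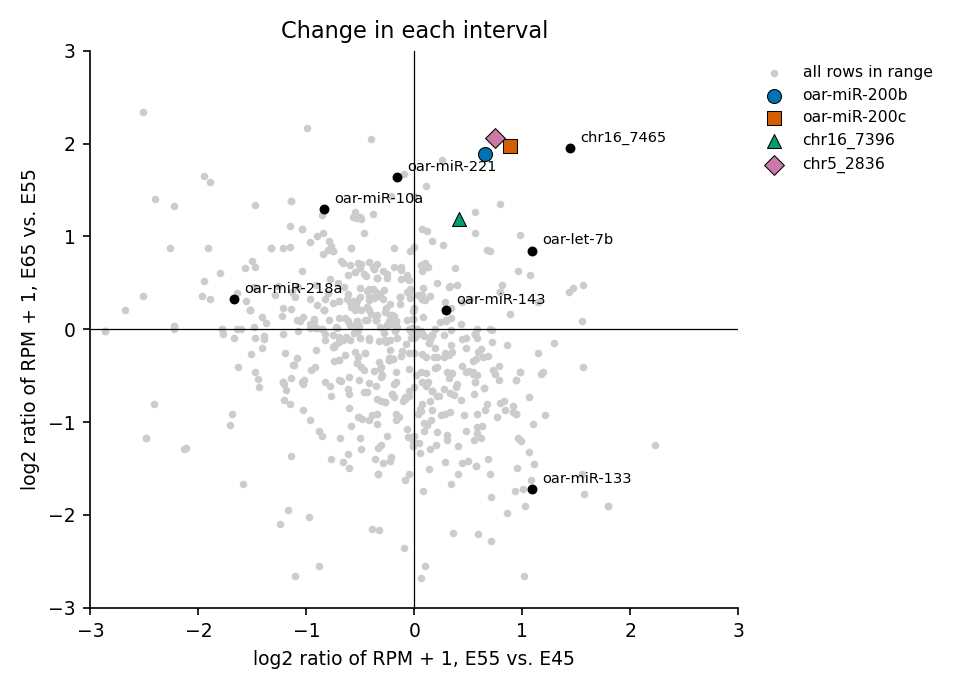
The log2 ratio of RPM + 1 in E65 vs. E55 against that in E55 vs. E45; grey points are all rows within 3 units of 0 on both axes (22 rows lie outside), coloured symbols the family rows above 3 reads, and black points other rows, labelled, for comparison. miR-200b, miR-200c and chr5_2836 lie together at the upper right, with ratios of 1.89 to 2.06 in the second interval, and miR-133 lies at the lower right.

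The other tissues that a skin sample can hold were followed by their miRNAs. Of the 7 epithelial miRNAs looked for by name, the 3 miR-200 rows were found, and miR-141, miR-429, miR-203 and miR-205 have no row of that name. A missing name does not mean that a miRNA was absent, here or in the lists that follow, because it may be among the 498 unnamed rows. Of 9 mesenchymal or dermal miRNAs 6 were found, and their summed level was 125074 RPM (E45), 123785 RPM (E55) and 146601 RPM (E65), most of it from miR-143, a miRNA of smooth muscle and fibroblasts. Among the 6 the median log2 ratio was -0.65 (E55 vs. E45), 0.32 (E65 vs. E55) and -0.05 (E65 vs. E45), beside -0.25, -0.09 and -0.41 over all rows. The 6 carry sheep names, and over all 151 sheep-named rows the medians were 0.15, -0.52 and -0.37 in this order. miR-199a-3p, abundant in mesenchyme, was listed at 32610 RPM (E45), 22583 RPM (E55) and 27995 RPM (E65). miR-143 was listed at 67984, 83128 and 95670 RPM at the successive stages, and from E45 to E65 it was 1.41-fold higher. The levels of miR-10a and miR-10b, which are encoded in the HOX clusters, were lowest at E55, with 2220.33, 1242.93 and 3057.41 RPM for miR-10a and 10310, 6049 and 11283 RPM for miR-10b. From E45 to E65 they were 1.38-fold and 1.09-fold higher. miR-152 had 8525.38, 9710.01 and 7255.21 RPM, and miR-218a had 3424.57, 1072.29 and 1339.99 RPM, so that 3 of the 6 rows were higher and 3 lower at E65 than at E45. Past 2-fold, none of the 6 was higher and 1 (miR-218a) was lower in E65 vs. E45, beside 5.86% and 26.8% of all rows. In E65 vs. E55 1 (miR-10a, 2.46-fold) was higher and none was lower, beside 6.32% and 16.3%. In E55 vs. E45 none was higher and 1 (miR-218a, 0.313-fold) was lower, beside 4.47% and 17.7%. With 6 rows these counts do not set the list apart from the table.

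The levels of the single muscle row took another course. miR-133, a marker of skeletal and heart muscle, was listed at 3105.69 RPM (E45), 6622.57 RPM (E55) and 2012.97 RPM (E65), so that it was highest at E55, and the fold change was 2.13 (2.08 to 2.19) in E55 vs. E45 and 0.304 (0.295 to 0.314) in E65 vs. E55. miR-1 and miR-206 have no row of that name, nor do any of the neuronal (3), red blood cell (3) and endothelial (1) miRNAs looked for. miR-150, a lymphocyte miRNA, had 6.11, 8.24 and 13.65 RPM, from 15, 34 and 32 reads, and miR-223 has no row of that name. The part of the tissues behind these rows in the levels of miR-200b and miR-200c was not tested. The labels name 2 kinds of sequencing instrument for these libraries, and which library ran on which is not given in the sources used here.

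**Figure D5:**
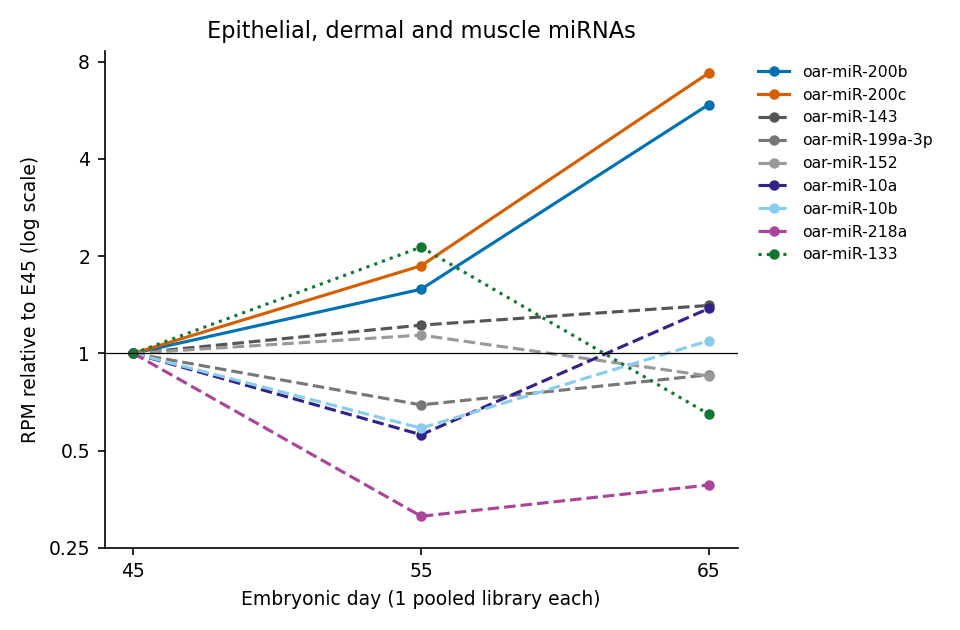
RPM relative to E45 (log axis) against embryonic day for miR-200b and miR-200c (solid lines), the 6 mesenchymal or dermal miRNAs (dashed) and miR-133 of muscle (dotted), 1 pooled library per stage. At E65 the members are 5.89 and 7.38 times their E45 level, while the 6 dermal rows lie between 0.391 and 1.41 times.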

How the data were processed

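Small RNA from skin pooled from 3 embryos per stage was sequenced as 1 library each at E45, E55 and E65, and the submitters' processing notes name Bowtie for these libraries; its settings, the genome build and the miRNA caller are not given in the sources used here. The authors deposited RPM values, which they call TPM, for 649 rows with a sequence each. All low values (up to 50 reads) were whole multiples of 1 read within a tolerance of 0.1 (100% of 283, 292 and 314 values), which gave totals of 2455491 (E45), 4125742 (E55) and 2344798 (E65) reads. This recovery was tested on simulated data. Of all rows, 110 share their sequence with another row and repeat its values, so their reads count more than once in these totals.

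Ratios between libraries were taken as log2(RPM + 1) for all rows, and as ratios of reads per total with exact (conditional binomial) intervals for the rows described. Levels have exact Poisson intervals. Of the rows described, one at or under 3 reads in both libraries was given no ratio, while the counts of rows past 2-fold cover all rows. With 1 library per stage no count model or test was run. The rows described were the members, the 5 sheep-named rows nearest to each in profile, the marker lists and the rows next to each member in mean RPM. The rows with a ratio from E45 to E65 at least that of miR-200b and the unnamed rows with a family seed were also described. The unnamed row chrX_13128 was taken from the rows nearest in profile among all rows. The members and lists were chosen with earlier results of these data known. The mRNA table (RPKM) was not used here, since 0 of its 20486 identifiers matched an entry of the gene table used here, so targets such as ZEB1 were not analysed here. Python 3.11.15, numpy 2.4.6, pandas 2.3.3, scipy 1.17.1 and matplotlib 3.10.9 were used.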

Additional observations from a re-analysis of the deposited data

How the results depend on the processing

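The 6 log2 ratios of miR-200b and miR-200c were recomputed under 8 alternatives each, and all 48 values kept their direction. Of these, 45 stayed within the counting interval, but 2 of the 8 alternatives could not leave it. Setting values under 3 reads to 3 reads does not touch rows this abundant. Whole reads without a pseudocount give the ratio on which the interval itself is built. The same holds for the unnamed family rows below. Median scaling, which removed log2 offsets between libraries (0.24 for E45, -0.07 for E55, -0.20 for E65), moved 3 of the 48 values out of it. They became 0.96 for miR-200b in E55 vs. E45, and 2.98 for miR-200b and 3.28 for miR-200c in E65 vs. E45. The ratio in E65 vs. E45 ran from 2.35 to 2.98 for miR-200b and from 2.62 to 3.28 for miR-200c. Collapsing identical sequences and the alternatives for the unnamed rows were added after seeing the data, and 8 of the 48 values of the unnamed rows moved, none in direction (2.61 to 3.25 for chr5_2836 and 1.42 to 2.04 for chr16_7396 in E65 vs. E45). Rows past a 2-fold difference numbered 144 (E55 vs. E45), 147 (E65 vs. E55) and 212 (E65 vs. E45). They became 78, 75 and 109 with pseudocount 10, 88, 92 and 123 with a mean of at least 10 RPM, and 19, 49 and 39 among sheep-named rows only. The last 2 settings hold fewer rows by construction. The counts rose to 196, 211 and 265 with pseudocount 0.1, and to 172, 167 and 215 without the 10 most abundant rows. No ratio was computed for oar-miR-200a, which had at most 3 reads in each library. No paired analysis was possible because each stage has 1 pooled small RNA library, and for the same reason no replicate could be left out. Depth limits oar-miR-200a and the comparison of miR-200b with miR-200c. The alternatives for mRNAs were not run, as no identifier matched the gene table used here.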

Other observations

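In mean RPM over the 3 libraries, miR-200b (216 RPM) ranked 73rd of the 151 sheep-named rows (98th, 92nd and 56th in the E45, E55 and E65 libraries), between miR-30b (214 RPM) and miR-485-3p (222 RPM). These neighbours did not share its profile: miR-30b was listed at 245.16, 197.06 and 200.44 RPM at E45, E55 and E65, and miR-485-3p, of the imprinted DLK1-DIO3 region, at 276.52, 263.71 and 124.96 RPM. miR-200c (142 RPM) ranked 87th (108th, 101st and 65th in the single libraries), between miR-496-3p with 158.83, 165.06 and 90.84 RPM and miR-30a-3p with 155.16, 150.28 and 125.38 RPM. oar-miR-200a ranked 146th (143rd, 147th and 134th), between miR-154a-5p and miR-539-5p, which had between 1 and 4 reads per library.

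The 31 rows of 18 or 19 nt had a median of 8.19 RPM in their mean over the libraries, against 24.0 RPM for the 618 longer rows. Of the 31 short rows 1, oar-miR-200a itself, stood at or below the mean of oar-miR-200a, and 40 of the longer rows did.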
